A study of Mus musculus with 4 samples.

Results

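The genes described here are 10 core genes of the circadian clock: Arntl, Clock, Per1, Per2, Per3, Ciart, Nr1d1, Nr1d2, Dbp and Tef. They were chosen by symbol, not by any measured value, though earlier results of these data were known when the list was made. All 10 were among the 31053 genes of the tables. Their transcripts were counted in the 32217 of 40003 barcodes (droplets taken as cells) that held 1000 to 40000 unique molecular identifiers (UMIs, each standing for 1 captured transcript molecule) and at most 10% mitochondrial UMIs. The question was whether the 4 libraries of the series stood at the same clock state, and in which cells.

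The libraries came from the long bones of wild-type mice. In the hindlimb unloading (HLU) group, 2 mice were suspended by the tail for 28 days, so that the hind limbs carried no weight, and 2 control (Ctrl) mice received no treatment. Tibiae and femurs were flushed to remove marrow, digested with enzymes and run through a droplet kit that reads the 3′ ends of transcripts. The age of the mice is given differently in the study's methods and in the series description and is left out here, and the hour at which each mouse was killed is not given in the sources used here. With 2 libraries per group, every p-value of HLU against Ctrl with all libraries rests on the spread between 2 and 2 mice. The p-values of tests between cell classes, and of differences of the HLU effect between classes, rest on the spread over class sums. These sums come from the same mice and add no animals.

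The clock of mammalian cells is a feedback loop of transcription that runs with a period near a day. Arntl (also called Bmal1) and Clock encode partners that bind E-boxes and switch on the Per, Cry, Ciart, Nr1d, Dbp and Tef genes. PER and CRY proteins, and CIART (also called CHRONO), repress that pair, and the nuclear receptors NR1D1 and NR1D2 (REV-ERBα and REV-ERBβ) repress Arntl itself. DBP and TEF are output factors that bind D-boxes, among them those of the Per genes. In a running clock Arntl transcripts peak at another time of day than those of Dbp and Nr1d1, and in bone the loop runs in chondrocytes, osteoblasts and marrow cells alike.

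The binding letters through which these genes are known to regulate each other were looked up in RefSeq promoters of GRCm38.p6 (windows from 250 bases before to 50 after each start). They are shown because the genes measured here form these loops. A window was found for 9 of the 10 genes, and Per2 had none. The E-box letters CACGTG were in windows of 3 of the 9 genes and of 8.09% of all 27025 genes with a window (7.15% of all 32851 windows). The D-box letters TTATGTAA, on either strand, were in 1 gene of the 9 and in 1.11% of all genes (0.938% of windows). The ROR element, the site at which Nr1d receptors bind, was in 1 gene and in 0.459% of all genes (0.384% of windows). Capitals mark the matched letters, and each stretch reads 5′ to 3′ on the strand of its gene.
Ciart (E-boxes, chr3:95882255-95882356, minus strand, upstream of the gene): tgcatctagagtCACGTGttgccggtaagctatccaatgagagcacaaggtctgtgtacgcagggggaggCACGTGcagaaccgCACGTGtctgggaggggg
Per3 (D-boxes, chr4:151044804-151044882, minus strand, upstream of the gene): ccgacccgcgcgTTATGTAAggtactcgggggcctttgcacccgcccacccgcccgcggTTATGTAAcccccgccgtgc
Per1 (E-box, chr11:69098771-69098800, plus strand, in an intron, before an internal start): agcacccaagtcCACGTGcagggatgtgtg
Tef (E-box, chr15:81802534-81802563, plus strand, in an exon, before a RefSeq start): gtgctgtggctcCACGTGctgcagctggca
Tef (E-box, chr15:81811264-81811293, plus strand, in an intron, before an internal start): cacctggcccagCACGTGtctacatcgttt
Arntl (ROR element, chr7:113207528-113207556, plus strand, in an exon, after a RefSeq start): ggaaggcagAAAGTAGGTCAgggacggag
Ciart carried 3 E-boxes within 102 bases and Per3 a pair of D-boxes within 79 bases. The windows of Clock, Dbp, Nr1d1 and Nr1d2 held none of these letters, which says nothing of sites elsewhere in those genes.

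In the GENCODE M21 annotation of mm10, Arntl lies on chromosome 7 (113207465 to 113314126), Clock on 5 (76209868 to 76304792), Per1 on 11 (69095217 to 69109960), Per2 on 1 (91415982 to 91459324) and Per3 on 4 (151003652 to 151044665). Ciart lies on 3 (95878503 to 95882251), Nr1d1 on 11 (98767932 to 98775333), Nr1d2 on 14 (18204054 to 18239127), Dbp on 7 (45705088 to 45710203) and Tef on 15 (81802421 to 81826863). Exons of Nr1d1 and Dbp share 263 and 539 bases with exons of Thra and Sphk2 on the opposite strand, and exons of Tef and Arntl share 193 and 33 bases with those of Gm17597 and Gm45355, also on the opposite strand. Per3 lies within Camta1 on the same strand, and their exons share 0 bases.

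The passing barcodes held 45347595 to 87604282 UMIs per library. They were sorted into classes by marker genes, and 81.4% received a class. In marker sums, 6 of 94 markers were higher in another class than in their own (among them Ly6c2 and Fn1 of monocytes and macrophages). The class makeup differed between the groups: chondrocytes, osteoblasts and stromal cells, pooled here as skeletal cells, numbered 3139 and 2279 barcodes in the Ctrl libraries against 47 and 104 in the HLU libraries, so HLU levels in them rest on few UMIs. HLU replicate 2 stood apart from the other 3 libraries. It had 267 barcodes under 1000 UMIs where the others had 2143 to 2585, and in mature neutrophils it lay over 4-fold below the lowest of the other libraries for 3.21% of 10296 genes, against 0.0777% to 1.17% for each other library. Pairs of libraries shared 13 to 21 barcodes.

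Summed over all passing barcodes, 5 of the 10 clock genes were lower in HLU than in Ctrl and none was higher. These 5 were the output and receptor genes Nr1d1, Nr1d2, Dbp and Tef, and Per3. The activators Arntl and Clock did not pass the test, nor did Per1, Per2 and Ciart. The share of all 15385 genes called in either direction was 23.2%, and both HLU libraries lay below both Ctrl libraries for 8 of 10 clock genes against 35.2% of all genes.

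Nr1d1 stood at 139 and 145 UMIs per 1000000 UMIs (CPM) in Ctrl replicates 1 and 2 and at 4.65 and 5.41 CPM in HLU replicates 1 and 2. The Ctrl mean was 142 ± 4.32 CPM and the HLU mean 5.03 ± 0.536 (SD, n = 2 each). The log2 fold change was −4.73 (SE 0.31, edgeR adjusted p = 0.00326). Nr1d2 stood at 38.7, 36.8, 3.77 and 4.03 CPM in the same order of libraries, which is kept from here on (log2 −3.20, SE 0.26, edgeR adjusted p = 0.00347). Both receptor genes were thus low in each HLU library.

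Dbp had 34.4, 33.2, 4.04 and 2.55 CPM (log2 −3.31, SE 0.30, edgeR adjusted p = 0.00397). Tef had 23.5, 18, 4.94 and 3.42 CPM (log2 −2.25, SE 0.31, edgeR adjusted p = 0.00932). Per3 had 23.2, 18.2, 5.98 and 5.07 CPM (log2 −1.84, SE 0.27, edgeR adjusted p = 0.0116). For each of these 3 genes the groups did not overlap.

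Clock, at 26.8, 22.5, 10.7 and 12.9 CPM, was at a log2 fold change of −0.98 with an edgeR adjusted p of 0.0595. Arntl, at 10.6, 12.9, 13.2 and 2.36 CPM, and Per1, at 30.5, 69.0, 30.9 and 6.79 CPM, overlapped between the groups. In both of them HLU replicate 1 was close to a Ctrl library and HLU replicate 2 was the lowest. Ciart (14.8, 19.1, 12 and 0.845 CPM) and Per2 (9.35, 10.3, 5.78 and 1.66 CPM) likewise had HLU replicate 1 nearer to Ctrl than to HLU replicate 2.

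These sums mix cell types, and in a sum fewer cells of a type and less RNA per cell cannot be told apart. Of all passing UMIs, skeletal cells held 54.3% and 44.3% in Ctrl and 1.46% and 1.31% in HLU, and they held 78.6% and 82.2% of the Nr1d1 UMIs of the Ctrl libraries. The calls in the sum also moved with single libraries: 3 clock genes were called without Ctrl replicate 1, 4 without Ctrl replicate 2, 10 without HLU replicate 1 and 7 without HLU replicate 2, where 5.31%, 7.14%, 47.9% and 37.8% of all genes were called.

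**Figure D1:**
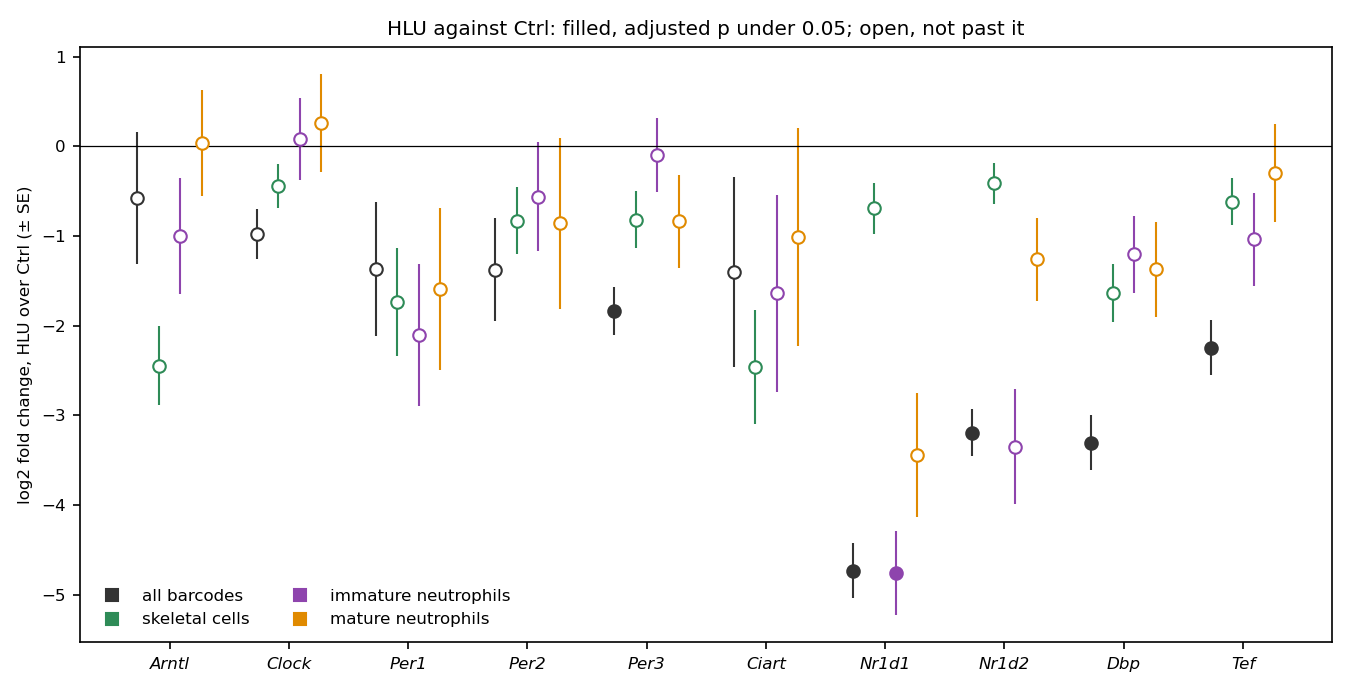
Log2 fold change of each clock gene, HLU over Ctrl, with its SE (y axis), in the sum of all barcodes, in skeletal cells and in both neutrophil classes; filled points have an edgeR adjusted p under 0.05. Nr1d1 is at −4.73 in the sum of all barcodes and −4.76 in immature neutrophils but at −0.69 in skeletal cells.

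Within skeletal cells the log2 fold changes of the clock genes were all below 0, from −2.46 (Ciart), −2.45 (Arntl), −1.74 (Per1) and −1.64 (Dbp) to −0.41 (Nr1d2). Those of Per2, Per3, Nr1d1, Tef and Clock were −0.83, −0.82, −0.69, −0.62 and −0.44. None of the 10 passed edgeR's test there, where 0.0% of 13089 genes passed (1877 at an unadjusted p under 0.05, or 14.3%, with 5 of 10 clock genes among them). DESeq2 called 1, Dbp (2.43% of all genes), and edgeR without a filter on low counts called Arntl, Ciart, Dbp and Per1 (5.58% of all genes). On edgeR's scale (TMM factors) both HLU libraries lay below both Ctrl libraries for 10 of 10 clock genes against 27.5% of all genes tested, and in plain CPM for 8 of 10 against 16.1%, since Clock and Nr1d2 then overlapped. In simulated sums of this class edgeR recovered 45 of 100 genes changed by 2 on the log2 scale and 2 of 100 changed by 1, so changes of the smaller size would mostly not be called. Neutrophil transcripts (6 genes) made up 0.285% and 0.374% of the UMIs of Ctrl skeletal cells and 1.12% and 0.964% of those of HLU skeletal cells, and the part of other cells' RNA in these levels was not tested. The makeup of the pool differed too: chondrocytes numbered 2363, 1793, 29 and 74 barcodes, osteoblasts 43, 37, 7 and 6, and stromal cells 733, 449, 11 and 24. In stromal cells alone mean CPM was higher in HLU for Clock (34.6 in Ctrl, 38.6 in HLU), Per2 (10.7, 15.3) and Per3 (22.2, 28.0), with overlapping libraries. It was lower for the other clock genes. The part of makeup in the pooled levels was not tested.

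In the skeletal cells Nr1d1 stood at 201, 269, 184 and 171 CPM, a log2 fold change of −0.69 (SE 0.28, edgeR adjusted p = 0.351). Nr1d2 stood at 53.4, 61.5, 51.4 and 53.9 CPM. Both receptor genes were thus present in HLU skeletal cells at 1.32-fold and 1.09-fold lower mean CPM than in Ctrl, where the sum of all barcodes gave 28.2-fold and 9.69-fold. Clock stood at 33.8, 31.3, 33.3 and 26.1 CPM and Tef at 31.6, 28.4, 19.7 and 26.9 CPM.

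Arntl, the activator, had 354 and 344 UMIs in Ctrl skeletal cells and 2 and 3 UMIs in HLU skeletal cells. That is 11.6, 13.2, 3.02 and 2.61 CPM, with 95% counting intervals of 0.366 to 10.9 and 0.537 to 7.62 CPM in the HLU libraries. The log2 fold change was −2.45 (SE 0.44), and the edgeR adjusted p was 0.207. The groups did not overlap, but the upper bound of HLU replicate 1 reached the lower bound of Ctrl replicate 1, 10.4 CPM.

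Ciart, the repressor, stood at 16.5, 24.6, 9.07 and 1.74 CPM in skeletal cells, from 6 and 2 UMIs in the HLU libraries (log2 −2.46, SE 0.63, edgeR adjusted p = 0.244). Dbp stood at 46.6, 54.5, 13.6 and 24.3 CPM (log2 −1.64, SE 0.32, edgeR adjusted p = 0.214). For Dbp both HLU intervals (6.22 to 25.8 and 16.2 to 35.2 CPM) ended below the Ctrl intervals. Per1 ranged from 10.4 CPM in HLU replicate 2 to 61.6 CPM in Ctrl replicate 2, with Ctrl replicate 1 (26.6) and HLU replicate 1 (24.2) next to each other. Per2 lay between 6.95 and 14.1 CPM and Per3 between 15.1 and 34.2 CPM over the 4 libraries.

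**Figure D2:**
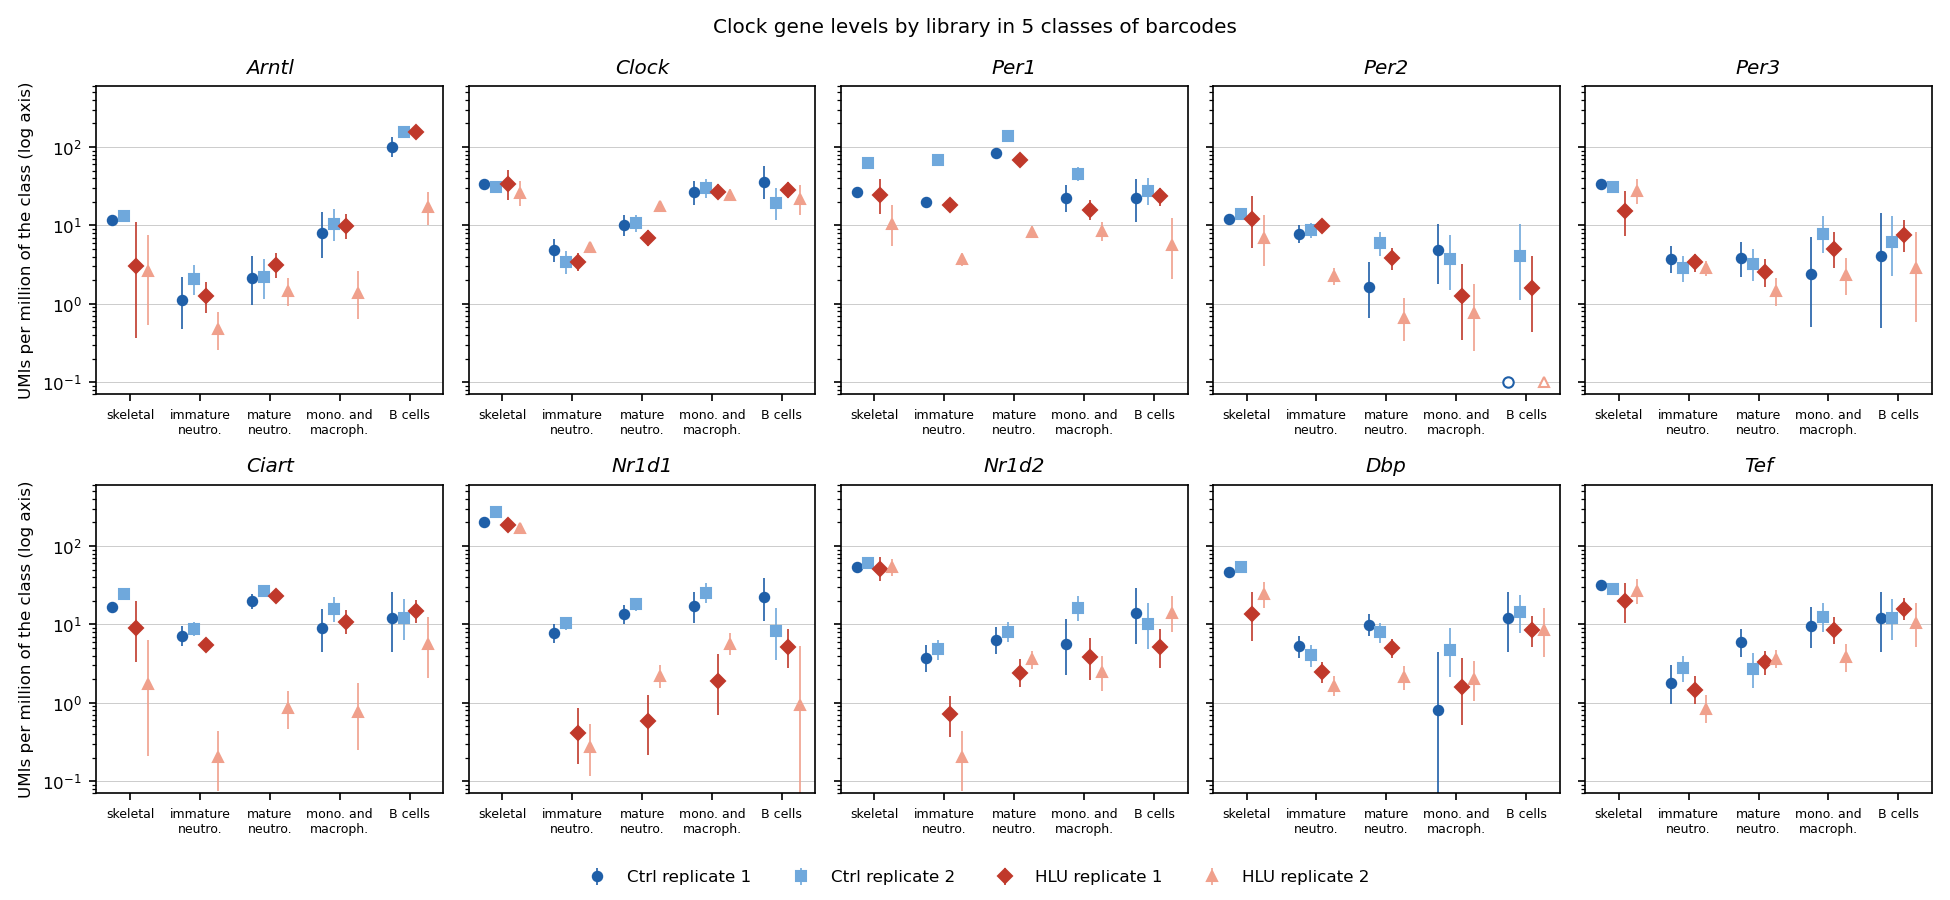
Level of each clock gene (UMIs per 1000000 UMIs of the class, log axis) in 5 classes of barcodes, 1 point per library, with 95% Poisson intervals that cover counting error only; open points at the lower edge had 0 UMIs. Ciart and Per1 are lowest in HLU replicate 2 in every class shown, whereas Nr1d1 is at 171 to 269 in skeletal cells of all 4 libraries and lower in both HLU libraries elsewhere.

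In the blood cell classes, 1 clock gene passed the test: Nr1d1 in immature neutrophils. There, 10 clock genes were tested and 2.5% of 11097 genes were called. None passed in mature neutrophils (10 tested, 0.602% of 10298 genes called), in monocytes and macrophages (8 tested, 0.0726% of 9639), in B cells (7 tested, 0.754% of 8091), in granulocyte progenitors (4 tested, 0.413% of 8949) or in dendritic cells (1 tested, Clock, 0.0618% of 6473). In simulated sums of mature neutrophils edgeR recovered 0 of 100 genes changed by 2 on the log2 scale. Immature neutrophils, and changes larger than 2, were not simulated, so the simulation cannot compare the neutrophil classes. The lack of calls in mature neutrophils is not read as a difference from immature neutrophils. In T and NK cells no clock gene had enough UMIs to be tested, and 0.561% of 3741 genes were called. At an unadjusted p under 0.05 edgeR counted 4 of 10 clock genes in immature neutrophils (11.6% of all genes), 3 of 10 in mature neutrophils (5.95%), 3 of 8 in monocytes and macrophages (7.53%) and 0 in the other 3 classes with a tested clock gene. All genes called in blood cell classes with all 4 libraries in the fit were lower in HLU.

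Nr1d1 in immature neutrophils, the precursors of the marrow that still make granule proteins, stood at 7.74, 10.4, 0.414 and 0.270 CPM. These levels came from 56, 106, 7 and 8 UMIs (log2 −4.76, SE 0.47, edgeR adjusted p = 0.00891). Its mature neutrophil levels were 13.5, 18, 0.583 and 2.18 CPM (log2 −3.44, SE 0.69, edgeR adjusted p = 0.139). In monocytes and macrophages it stood at 16.9, 25.2, 1.90 and 5.70 CPM (log2 −2.48, SE 0.60, edgeR adjusted p = 0.309). Both HLU libraries lay below both Ctrl libraries in all 3 classes. On edgeR's scale this held for 6 of 10 clock genes in immature neutrophils (23.3% of all genes), 5 of 10 in mature neutrophils (18.8%), 5 of 8 in monocytes and macrophages (22.4%) and 2 of 7 in B cells (17.2%). Without Ctrl replicate 2 the call in immature neutrophils was lost (0.539% of all genes called). Without HLU replicate 1 the count of clock genes called there was 6 (30% of all genes) and without HLU replicate 2 it was 2 (4.53%).

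Nr1d2 followed in immature neutrophils, at 3.73, 4.81, 0.709 and 0.202 CPM (log2 −3.35, SE 0.64, edgeR adjusted p = 0.0533). In mature neutrophils it stood at 6.4, 8.09, 2.43 and 3.57 CPM, a log2 fold change of −1.26. In T and NK cells it stood at 29.5, 28.3, 14.7 and 25.3 CPM from 4, 9, 3 and 21 UMIs, with counting intervals that overlapped.

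Transcripts of cartilage moved with Nr1d1 in these classes. The summed level of 10 cartilage transcripts that no class was defined by (Col9a2, Col9a3, Hapln1, Matn1, Mgp, Clu, Cilp, Prg4, Fmod and 1500015O10Rik) was 1270, 2358, 53.6 and 32.8 CPM in immature neutrophils and 2194, 2121, 83.8 and 168 CPM in mature neutrophils. In barcodes under 1000 UMIs, which can hold RNA from outside cells, it was 25433, 19999, 583 and 1008 CPM, and Nr1d1 stood there at 117, 129, 3.61 and 15.3 CPM.

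Per 1000 of these cartilage UMIs, Nr1d1 had 6.12 and 5.82 UMIs in the neutrophils of the Ctrl libraries. The same ratio was 4.44 and 5.91 in their skeletal cells and 4.58 and 6.44 in their barcodes under 1000 UMIs, and the neutrophil intervals were 5.05 to 7.36 and 5.06 to 6.65. The neutrophil ratio was thus above that of skeletal cells in Ctrl replicate 1 and within counting error of it in Ctrl replicate 2. In the HLU libraries the neutrophil ratio was 7.34 (3.91 to 12.6) and 11.8 (8.55 to 15.8), from 13 and 44 Nr1d1 UMIs, against 7.59 and 8.11 in skeletal cells. For the other 9 clock genes the ratio was higher in neutrophils than in skeletal cells in both Ctrl libraries. Per1, for instance, had 26.6 and 41.1 UMIs per 1000 cartilage UMIs in Ctrl neutrophils against 0.588 and 1.35 in Ctrl skeletal cells. The part of cartilage RNA in the Nr1d1 levels of blood cells was not tested further.

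**Figure D3:**
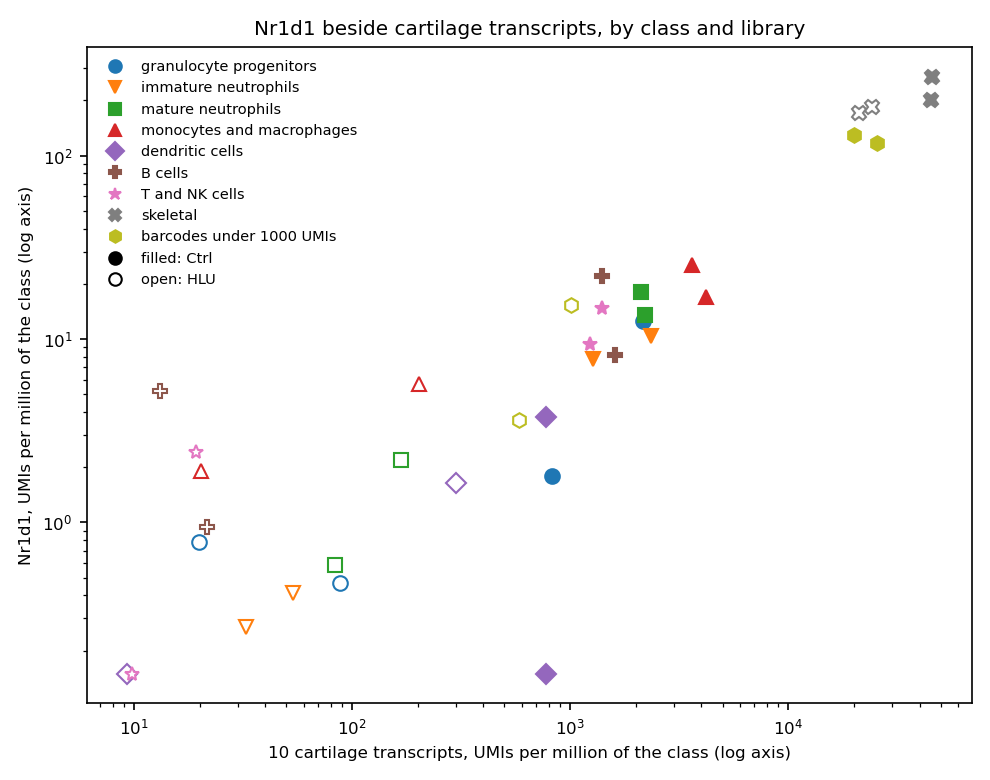
Nr1d1 (y axis) against 10 cartilage transcripts (x axis), both in UMIs per 1000000 UMIs of the class on log axes, 1 point per class and library, filled for Ctrl and open for HLU; points at the lower edge had 0 Nr1d1 UMIs. Points share libraries, and in both groups classes with more cartilage RNA mostly have more Nr1d1.

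The HLU effect on Nr1d1 was larger in neutrophils than in skeletal cells by the test of that difference with the library as a block. In immature neutrophils the difference was −4.07 on the log2 scale (SE 0.37, edgeR adjusted p = 4.12e-05, 5.84% of 13781 genes called). In mature neutrophils it was −2.86 (SE 0.54, edgeR adjusted p = 0.0265, 2.54% of 12971 genes called). Nr1d2 differed in immature neutrophils (−3.01, SE 0.50, edgeR adjusted p = 0.00248), and the other 8 clock genes did not pass in either class. The cartilage RNA described above moved with these differences.

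Per1 and Ciart, both repressors of the loop, separated HLU replicate 2 from the other 3 libraries in neutrophils. Ciart stood at 7.18, 8.74, 5.49 and 0.202 CPM in immature neutrophils, the last from 6 UMIs (0.0742 to 0.440 CPM). In mature neutrophils it stood at 19.9, 26.6, 23.3 and 0.848 CPM, the last from 14 UMIs (0.464 to 1.42 CPM), so HLU replicate 1 lay between the Ctrl libraries. In monocytes and macrophages it stood at 8.87, 15.8, 10.8 and 0.770 CPM. Ciart was lowest in HLU replicate 2 in all 6 classes with at least 20 of its UMIs.

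Per1, which is also induced by glucocorticoids and stress, stood at 19.6, 67.6, 18 and 3.71 CPM in immature neutrophils. In mature neutrophils it stood at 82.7, 137, 67.6 and 8.24 CPM and in monocytes and macrophages at 22.6, 45.7, 15.8 and 8.47 CPM. Ctrl replicate 2 was the highest library for Per1 in 8 of 8 classes and HLU replicate 2 the lowest in 6. The log2 fold changes of −2.10, −1.59 and −1.61 in the 3 classes did not pass (edgeR adjusted p = 0.381, 0.928 and 0.536).

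Per1 and Ciart were over 4-fold below the lowest of the other libraries in HLU replicate 2 in both neutrophil classes. The share of all genes that lay as far below in that library was 3.22% in immature neutrophils and 3.21% in mature neutrophils. No clock gene lay as far from the others in any other library of these classes. In monocytes and macrophages the clock genes that far below in HLU replicate 2 were Arntl and Ciart, against 3.35% of all genes.

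Per2, a core repressor of the loop, stood at 7.87, 8.64, 9.75 and 2.26 CPM in immature neutrophils. HLU replicate 1 was thus the highest library and HLU replicate 2 the lowest. Its levels in mature neutrophils were 1.66, 5.90, 3.79 and 0.666 CPM. Per3 had nearly even levels in immature neutrophils (3.73, 2.85, 3.37 and 2.87 CPM). In granulocyte progenitors Per3 stood at 9.84, 18.3, 28.1 and 19.0 CPM, a log2 fold change of 0.48 that did not pass (edgeR adjusted p = 0.814).

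Without HLU replicate 1, 7 clock genes were called in mature neutrophils and 6 in monocytes and macrophages, where 39.3% and 39.5% of all genes were called. Without HLU replicate 2, the counts were 2 and 2, with 4.78% and 5.33% of all genes called. The fits without Ctrl replicate 1 or Ctrl replicate 2 called few genes of any kind in either class and no clock gene, so nothing is read from them.

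Among the outputs, Dbp stood at 5.25, 4.03, 2.48 and 1.65 CPM in immature neutrophils (log2 −1.21, SE 0.43, edgeR adjusted p = 0.341). In mature neutrophils it stood at 9.95, 7.92, 4.96 and 2.12 CPM (log2 −1.37, SE 0.53, edgeR adjusted p = 0.798). The groups did not overlap in either class, and the levels rested on 35 to 51 UMIs per library. The part of cartilage RNA in these Dbp levels was not tested. Tef stood at 1.80, 2.75, 1.48 and 0.843 CPM in immature neutrophils and overlapped between the groups in mature neutrophils (5.92, 2.70, 3.30 and 3.63 CPM).

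The activators differed from each other in neutrophils. Clock stood at 4.84, 3.44, 3.43 and 5.26 CPM in immature neutrophils. It stood at 10.2, 10.6, 6.90 and 17.7 CPM in mature neutrophils, so that HLU replicate 2 was the highest library in both. Of the clock genes called in mature neutrophils without HLU replicate 1, Clock alone was higher in HLU. Over the 8 classes HLU replicate 2 was highest for Clock in 4 and lowest in 2, and the groups overlapped in plain CPM in 7. Arntl was lowest in HLU replicate 2 in 7 of 8 classes, with 1.11, 2.06, 1.24 and 0.472 CPM in immature neutrophils and 8.06, 10.5, 9.82 and 1.39 CPM in monocytes and macrophages.

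Arntl in B cells stood at 100, 154, 156 and 16.9 CPM, from 50, 151, 391 and 18 UMIs. The log2 fold change of −0.64 did not pass (SE 0.78, edgeR adjusted p = 0.951), and 3 libraries stood together against HLU replicate 2. Without HLU replicate 1 the log2 fold change was −3.02 and Arntl was called, in a fit that called 16.8% of all genes, and without HLU replicate 2 it was 0.14. Each of these fits has a lone HLU library, which is assumed to vary as the Ctrl libraries do.

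Within the B cells of the first 3 libraries, 86.0%, 90.7% and 88.0% of the Arntl UMIs lay in barcodes that also held transcripts of precursor genes. Barcodes with any UMI of Vpreb1, Igll1, Rag1 or Dntt (genes of the surrogate light chain and of antigen receptor rearrangement) made up 25.8% of the B cell barcodes in Ctrl replicate 1, 13.1% in Ctrl replicate 2 and 20.3% in HLU replicate 1. In HLU replicate 2 they were 1 of 374 barcodes (0.267%, exact 95% interval 0.00677% to 1.48%). In the precursor barcodes of the first 3 libraries Arntl stood at 315, 712 and 578 CPM, from 43, 137 and 344 UMIs. The single such barcode of HLU replicate 2 held 0 Arntl UMIs of 3857, which allows up to 778 CPM.

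In the B cell barcodes without a precursor gene Arntl stood at 19.3, 17.7, 24.5 and 17 CPM. All 4 libraries were thus close, with counting intervals that overlapped. The split was made after the values were seen and carries no test. In HLU replicate 1 the precursor barcodes held 57.6% of all Arntl UMIs of the library and 1.31% of all its UMIs. In Ctrl replicates 1 and 2 they held 7.20% and 18.1% of all Arntl UMIs.

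**Figure D4:**
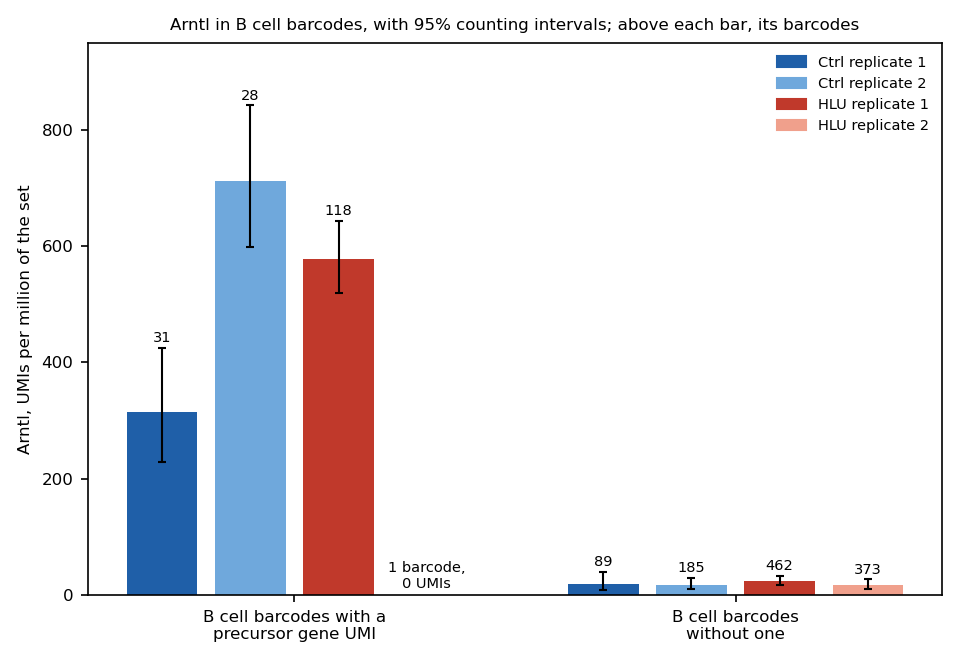
Arntl level (UMIs per 1000000 UMIs of the set, y axis from 0) in B cell barcodes with and without a UMI of a precursor gene, 1 bar per library, with 95% Poisson intervals; the numbers above the bars count barcodes. Precursor barcodes of 3 libraries stand at 315 to 712 and the rest at 17 to 24.5, and HLU replicate 2 had 1 precursor barcode.

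The other clock genes in B cells had low counts. Per1 stood at 22.1, 27.5, 23.5 and 5.65 CPM and Ciart at 12, 12.2, 14.7 and 5.65 CPM, both lowest in HLU replicate 2. Tef (12, 12.2, 15.9 and 10.4 CPM) and Clock (36.1, 19.3, 28.7 and 21.6 CPM) overlapped between the groups. Per2 had 0 UMIs in Ctrl replicate 1 and HLU replicate 2, which allows up to 6.02 and 2.82 CPM.

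Between cell classes, the clock genes were tested in a fit with the library as a block, which compared each blood cell class with the mean of the other 6. Large shares of all genes were called in it too. The counts of clock genes are thus not read as a trait of these genes. In B cells, 3 clock genes were higher (24.7% of 10761 genes were) and 0 lower (23.4%). Arntl led with a log2 difference of 3.44 (SE 0.21, edgeR adjusted p = 6.48e-13), followed by Tef (0.77) and Clock (0.50). The Arntl range of B cells over the libraries overlapped that of T and NK cells, whose mean was 34.2 CPM. B cell barcodes without a precursor gene stood at 17 to 24.5 CPM, as described above. In T and NK cells 4 clock genes were higher (19.9%), namely Nr1d2 (2.41), Arntl (2.02), Tef (1.13) and Clock (1.09). Per3 was lower there (−3.03, with 23.6% of genes lower), read from 1 UMI in all.

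Mature neutrophils had 5 clock genes higher (37.8% of all genes) and 1 lower (30.8%). The 5 were Per1 (2.22), Ciart (1.83), Nr1d1 (1.21), Per2 (1.02) and Dbp (0.77), and Arntl was lower (−1.69). Mean Nr1d1 was 15.8 CPM in Ctrl and 1.38 CPM in HLU mature neutrophils, where it moved with the cartilage transcripts described above. The part of cartilage RNA in its class difference was not tested. Immature neutrophils had Per2 higher (2.66, with 32.8% of genes higher) and 4 genes lower (24.0%): Arntl (−2.79), Tef (−1.57), Clock (−1.39) and Nr1d2 (−1.09). Both neutrophil classes were thus lower in Arntl and higher in Per2 than the mean of the other classes. For Per2 that mean includes T and NK cells, dendritic cells and B cells, read from 1, 2 and 8 UMIs in all. The Per2 ranges of both neutrophil classes over the libraries overlapped those of granulocyte progenitors and of monocytes and macrophages.

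Granulocyte progenitors had Per3 higher (2.78, edgeR adjusted p = 9.14e-10, with 29.1% of genes higher). In them 5 clock genes were lower (26.7%), namely Nr1d2 (−2.16), Ciart (−1.67), Clock (−1.61), Per1 (−1.08) and Tef (−0.84). Monocytes and macrophages had Nr1d1 (1.53) and Clock (0.89) higher (21.8%) and Dbp lower (−1.38, with 13.8% of genes lower). The part of cartilage RNA in this Nr1d1 difference was not tested either. Dendritic cells had 0 higher (15.8%) and Nr1d1 lower (−2.91, with 14.5% lower), read from 2 UMIs in all.

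Skeletal cells, in a fit of 8 classes, had 8 of 10 clock genes higher than the mean of the blood cell classes, where 35.6% of 11388 genes were higher and 26.0% lower. Nr1d1 led with a log2 difference of 6.08, followed by Nr1d2 (3.54), Per3 (2.93), Dbp (2.82), Per2 (2.54), Tef (2.19), Clock (1.21) and Ciart (1.02). Arntl and Per1 did not pass. Mean Nr1d1 over the 4 libraries was 206 ± 43.4 CPM (SD, n = 4) in skeletal cells. It was 12.4 ± 10.6 CPM in monocytes and macrophages, the next of these 8 classes, and their ranges did not overlap. Endothelial cells had too few barcodes for the fit and stood at 107 ± 51.2 CPM for Nr1d1, from 29 UMIs in all. For Nr1d2 skeletal cells (55.1 ± 4.44 CPM) and T and NK cells (24.5 ± 6.74 CPM) each stood clear of the class below among these 8. Endothelial cells, outside the fit, stood at 55.9 ± 31.1 CPM for Nr1d2, from 18 UMIs in all. For Clock the first 5 of the 8 classes, from T and NK cells (36.9 ± 12.4 CPM) to dendritic cells (23.1 ± 4.58 CPM), overlapped with their neighbours. Mature neutrophils (11.4 ± 4.57 CPM) stood below them. Neighbouring classes overlapped for Per1, Per2, Ciart, Dbp and Tef throughout.

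The arms of the loop were set against each other as a balance, the log2 ratio of the summed UMIs of Dbp, Tef, Per2, Per3, Nr1d1, Nr1d2 and Ciart to those of Arntl, Clock and Npas2, a relative of Clock. In the sum of all barcodes it was 2.68, 2.74, 0.77 and 0.57. That separates the groups by 2.04, with SDs of 0.05 (Ctrl) and 0.14 (HLU). The difference, −2.04, was −1.31 without Nr1d1 and −0.60 when the classes had equal weight. In skeletal cells it was 2.85, 3.1, 2.75 and 3.32, so both groups overlapped and the difference of means was 0.06, which was 1.03 without Clock. In HLU replicates 1 and 2 Nr1d1 gave 122 of 202 and 197 of 360 UMIs of the first sum. Clock gave 22 of 30 and 30 of 36 UMIs of the second. The skeletal balance there thus mostly set Nr1d1 against Clock, and the value without Clock rests on few UMIs. In chondrocytes alone, of which HLU replicate 1 had 29 barcodes, it was 2.95, 3.24, 3.35 and 3.73, higher in both HLU libraries by 0.44 on average.

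In immature neutrophils the balance was 2.55, 2.87, 2.34 and 0.53, and in mature neutrophils 2.26, 2.41, 2.03 and −0.41. HLU replicate 2 lay below the other 3 libraries in both, with counting intervals (0.25 to 0.82 and −0.66 to −0.16) apart from theirs. HLU replicate 1 lay within the counting interval of Ctrl replicate 1 in both. Without Nr1d1 in the sum the values were 1.90, 2.00, 2.01 and −0.64 in mature neutrophils. The gap between the 2 HLU libraries there was thus wider than that between HLU replicate 1 and either Ctrl library.

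In monocytes and macrophages the balance was 0.50, 1.07, −0.16 and −0.54. In granulocyte progenitors it was 1.42, 1.47, 1.42 and 1.20 and did not separate the groups. In B cells it was −0.84, −1.36, −1.66 and 0.13 and was lowest in the libraries with Arntl-rich precursor barcodes. In T and NK cells and in dendritic cells the counting intervals of all 4 libraries overlapped. The balance ignores which hour each gene peaks, so no phase was read from it.

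**Figure D5:**
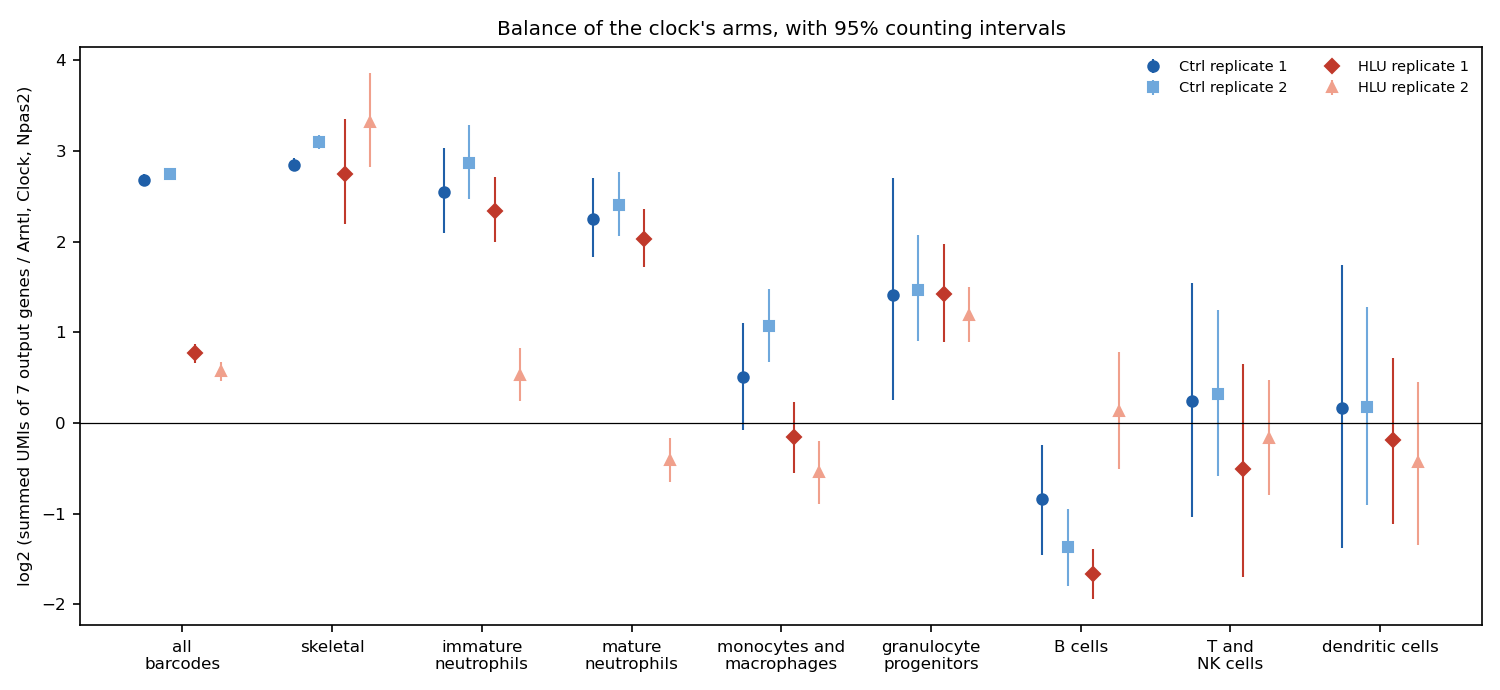
Balance of the clock's arms (log2 ratio, y axis) by class and library, with 95% counting intervals. In neutrophils 3 libraries stand between 2.03 and 2.87 while HLU replicate 2 stands at 0.53 and −0.41, and in skeletal cells all 4 stand between 2.75 and 3.32.

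Of 14 other clock genes, 7 were lower in HLU in the sum of all barcodes and 0 were higher, where 17.1% of all genes were lower and 6.06% higher. Among them were Npas2 (log2 −4.70), Rorb (−4.62), Arntl2 (−4.45), Bhlhe41 (−3.67), Rora (−3.57) and Cry2 (−1.96). Levels were very low for Rorb (0.213, 0.272, 0 and 0.0114 CPM) and low for Arntl2 (1.99, 1.62, 0.154 and 0.0228 CPM). Rora and Rorb encode activators that compete with Nr1d receptors, and Bhlhe41 is a repressor. In skeletal cells 0 of 13 tested passed, and the largest fold changes were those of Bhlhe41 (−2.32) and Arntl2 (−1.70). In immature neutrophils 0 of 10 passed, with Bhlhe41 (−3.35) and Rora (−2.74) the largest, and in mature neutrophils 0 of 9, with Hlf (−2.13) and Rora (−1.79) the largest. The median over the list was −1.80 in the sum of all barcodes, where the median of all genes was 0.04. Rora stood at 5.39, 8.35, 1.54 and 0.641 CPM in immature neutrophils and at 144, 149, 81.7 and 58.2 CPM in skeletal cells. The cartilage transcripts described above were also lower in HLU immature neutrophils. The part of cartilage RNA in the neutrophil levels of Rora and Bhlhe41 was not tested.

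Of 8 kinases and ligases that act on clock proteins, 0 passed in any class. The largest fold changes in the sum were those of Sirt1 (−0.95) and Csnk1e (−0.48), with Csnk1e at 73.5, 73.1, 76.0 and 26.0 CPM. Here too HLU replicate 2 alone was low.

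Glucocorticoid-induced genes and immediate early genes of tissue dissociation were followed because Per1, too, is induced by glucocorticoids and stress. In the sum of all barcodes 4 of 7 glucocorticoid-induced genes were lower (Errfi1, Klf9, Zbtb16 and Sgk1, at log2 −4.45, −3.0, −2.94 and −2.70) and Fkbp5 was higher (0.97), against 17.1% of all genes lower and 6.06% higher. Of 9 immediate early genes 3 were lower, Fosb (−2.88), Atf3 (−2.37) and Nr4a1 (−1.11). In immature neutrophils Errfi1, Klf9 and Atf3 were lower (−4.30, −2.12 and −2.73), and in mature neutrophils Errfi1 was (−2.58). Errfi1 was also lower in granulocyte progenitors (−4.64) and B cells (−4.63). It stood at 769, 862, 514 and 881 CPM in skeletal cells and at 50.7, 56.2, 3.54 and 2.09 CPM in immature neutrophils, where the cartilage transcripts moved with it. The summed level of the 7 glucocorticoid-induced genes was 911, 1117, 741 and 247 CPM in mature neutrophils, and that of the 9 immediate early genes 2303, 2703, 1968 and 1256 CPM. Both sums had the order of libraries of Per1, with Ctrl replicate 2 highest and HLU replicate 2 lowest. In skeletal cells the immediate early genes had that order too, at 1852, 2176, 1822 and 1363 CPM, while the glucocorticoid-induced genes, at 2186, 2532, 2351 and 1879 CPM, had HLU replicate 1 above Ctrl replicate 1. The part of either response in the Per1 levels was not tested.

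The genes most like each clock gene were sought over 32 points, 8 classes by 4 libraries, after each class's mean was taken from the log2 level. Points share libraries, so r is a description. Per1 was closest to Zfp292 (r = 0.91), Ccnl1 (0.91) and Clk1 (0.88), and Ciart to Nptn (0.92), Clk1 (0.91) and Vamp2 (0.90). Clk1 stood at 311, 387, 317 and 66.1 CPM in mature neutrophils and at 166, 211, 147 and 64.3 CPM in skeletal cells, so the genes most like Ciart and Per1 shared the low level of HLU replicate 2.

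Nr1d1 was closest to Meltf (0.90), Crip2 (0.88) and Kdelr3 (0.88). Meltf stood at 117, 140, 104 and 127 CPM in skeletal cells and at 4.42, 5.89, 0 and 0.0674 CPM in immature neutrophils, the same pattern as Nr1d1. The cartilage transcripts described above were also lower in HLU immature neutrophils. The part of cartilage RNA in this likeness was not tested. Nr1d2 was closest to Kank2 (0.76), Scube1 (0.75) and Trabd (0.74), and Dbp to Wnt11 (0.82), Sugt1 (0.77) and Axl (0.77). Arntl was closest to Hopx, Hist3h2a and Hist1h2ap (0.81 each). Clock (Parp3, Cenpb and Sh3bgrl), Per2 (Olfml2b, Cldn15 and Ccdc163), Per3 (Atp7a, Tmem63a and Kctd13) and Tef (Rela, Arl3 and Tmem65) had no gene above 0.76.
Between the clock genes themselves the highest r were those of Per1 with Ciart (0.68), Nr1d2 with Dbp (0.63), Arntl with Ciart (0.63) and Arntl with Per1 (0.63), and the lowest was that of Clock with Per1 (−0.36).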

How the data were processed

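Single-cell RNA-seq libraries of bone tissue (10x Genomics 3′ kit, version 3.1) were analysed, 2 Ctrl and 2 HLU. The authors made the UMI counts with Cell Ranger 6.0.0 (mm10 reference 3.0.0) and deposited them unnormalized, as whole counts for each gene in each barcode; the submitters' notes also name Seurat 4.1.0, not used here. The members, lists and tests were chosen with earlier results of these data known. Barcodes with 1000 to 40000 UMIs and at most 10% mitochondrial UMIs were kept, and doublets and haemoglobin-rich barcodes were kept except in alternatives. A barcode received a class by the mean of its 4 highest scaled markers (at least 0.4, at least 0.1 above the second class, at least 3 markers detected); this scoring, the pooled skeletal class, the split of B cells, the cartilage list, the distance of over 4-fold and the test of the difference between classes were set after seeing the data.

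UMIs were summed per library and class, and classes with at least 30 barcodes and 50000 UMIs in each library were tested with edgeR 4.0.16 (TMM factors, its filter on low counts, quasi-likelihood test) on all genes, with Benjamini-Hochberg adjustment over all of them and a threshold of 0.05. SE is the log2 fold change divided by the square root of the F statistic. The test between classes left out the gate markers and kept the library as a block. Levels are plain CPM, UMIs per 1000000 UMIs of the class sum. Intervals are 95% (Poisson, or exact Clopper-Pearson for shares and balances) and cover counting error only; where 0 UMIs were seen the limit is 3 UMIs. An exact permutation test of 2 against 2 cannot go below p = 0.333, so none is given. Tests were tried on simulated data, where edgeR recovered 0 of 100 genes changed by 2 (log2) in mature neutrophils, and DESeq2 1.42.0 recovered 42 with 24 false calls.

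Named genes are all 10 members; from the other lists those past the threshold or else the 2 with the largest fold change (1 result of these lists is not reported here); and, for each member with at least 200 UMIs, the 3 genes most like it among those with at least 1000 UMIs. Alternatives were DESeq2, upper-quartile factors, no filter, at least 10 UMIs in every library, each library left out, the replicate number as a block, doublets (Scrublet within scanpy 1.11.5) or barcodes over 0.2% haemoglobin removed, and a stricter gate. R 4.3.3, Python 3.11.15, numpy 2.4.6, scipy 1.17.1 and pandas 2.3.3 were used. Positions are from GENCODE M21 on mm10.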

Additional observations from a re-analysis of the deposited data

Results flagged for a closer look

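The HLU effect on the Nr1d receptor genes differed between neutrophils and skeletal cells by edgeR's test of the difference, with the library as a block, over 4 libraries. For Nr1d1 the log2 difference was −4.07 in immature neutrophils (adjusted p = 4.12e-05) and −2.86 in mature neutrophils (adjusted p = 0.0265). For Nr1d2 it was −3.01 in immature neutrophils (adjusted p = 0.00248). The 10 cartilage transcripts moved with these differences, at 1270, 2358, 53.6 and 32.8 CPM in immature neutrophils of Ctrl replicates 1 and 2 and HLU replicates 1 and 2.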

How the results depend on the processing

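Of 450 recomputed values, 368 kept their direction and their side of the threshold. Leaving out 1 library each time gave 3 to 10 clock genes called in the sum of all barcodes (5 with all libraries), 0 to 6 in immature neutrophils (1), 0 to 7 in mature neutrophils (0), 0 to 6 in monocytes and macrophages (0), 0 to 3 in B cells (0), 0 to 3 in skeletal cells (0) and 0 to 1 in granulocyte progenitors (0). The highest counts all came without HLU replicate 1, in fits that called 47.9%, 30%, 39.3%, 39.5%, 16.8%, 9.58% and 30.2% of all genes in that order, and in which the lone library is assumed to vary like the other group. Between classes it gave 1 to 2 genes higher and 3 to 5 lower in progenitors, 0 to 2 higher in immature neutrophils, 3 to 5 higher in mature neutrophils, 0 to 1 lower in dendritic cells, 1 to 3 higher and 0 to 1 lower in B cells and 0 to 1 lower in T and NK cells. With all libraries, 15.8% to 37.8% of all genes were higher and 13.8% to 30.8% lower, depending on the blood cell class. The shares in the alternative fits between classes, the stricter gate among them, are not given here. Arntl in B cells, at −0.64, ranged from −3.02 to 0.14 and turned its direction without HLU replicate 2. Without HLU replicate 1, Clock was higher in HLU in mature neutrophils, and the other clock genes called there were lower. DESeq2 called 2 genes in immature neutrophils (4.44% of all genes), 1 in mature neutrophils (2.65%) and 1 in skeletal cells (2.43%). Without a filter on low counts edgeR called 1 in progenitors (2.06%), 4 in immature neutrophils (6.13%), 2 in mature neutrophils (3.59%), 2 in monocytes and macrophages (3.57%) and 4 in skeletal cells (5.58%). With at least 10 UMIs required in every library the count in immature neutrophils was 0, but Nr1d1, with 7 and 8 UMIs in the HLU libraries, was then not tested. The stricter gate gave 1 in mature neutrophils (0.81%), and between classes 0 higher in immature neutrophils, 3 higher in mature neutrophils and 1 lower in B cells; it could not be fitted for monocytes and macrophages, dendritic cells and skeletal cells. The causes of the other changes were not tested. The replicate numbers share only a number (deviations of same-numbered libraries correlated at −0.10 in all barcodes, −0.03 in immature neutrophils, 0.08 in mature neutrophils and 0.03 in B cells), and the replicate block gave 1 call in mature neutrophils (2.52%) and 1 in monocytes and macrophages (1.63%). The balance in all barcodes moved from −2.04 to −1.69 with Per1 added, −1.55 without Clock, −1.31 without Nr1d1 and −0.60 with equal class weights, and in skeletal cells from 0.06 to 1.03 without Clock. Depth limits the HLU skeletal cells, where Arntl rests on 2 and 3 UMIs.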
